A study of Arabidopsis thaliana with 15 samples.

Results

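WRKY proteins are a large family of plant transcription factors. Of the Arabidopsis thaliana WRKY genes, 51 were followed here in the RNA of seedlings mutated in other WRKY genes or in OBERON1 and OBERON2. The 51 were a list of loci, the family without its groups IIa and IId and without the group III genes of salicylate signalling. All 51 were found among the 32548 genes of the table, 13 of them in group I, 8 in group IIb, 17 in group IIc, 8 in group IIe and 5 in group III. WRKY64, WRKY66 and WRKY67, all of group III, did not reach a mean of 1 normalised read in any group of libraries and were not tested, which left 48 among the 25085 genes tested.

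A WRKY protein carries a DNA-binding domain built around a conserved WRKYGQK stretch and a zinc finger, and binds DNA elements called W-boxes. Members of group I typically carry a pair of these domains and the other groups 1, and groups are told apart by their zinc finger and by the sequence outside the domain. Many members are known for defence against pathogens, where MAP kinases and proteins with a VQ motif act on them, and others for senescence, phosphate supply, trichomes, seeds and flowering time. OBERON1 and OBERON2 are nuclear proteins with a PHD finger, known for their part in setting up root and shoot meristems in the embryo.

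Messenger RNA of 11-day-old seedlings was sequenced in 15 libraries, 3 in each of 5 groups, all of the Col-0 ecotype and all grown on MS plates with no treatment named in the labels. The group obe1-2 carried the genotype obe1-/- obe2-/-. The group wrky-qm_15_hz carried wrky7-/-11-/-17-/-21-/-39-/- wrky15+/-, so that 5 genes of group IId were mutated on both copies and WRKY15, a further gene of that group, on 1 copy. The group wrky-qm carried wrky7-/-11-/-17-/-21-/-39-/- alone. Col-0_2 and Col-0_1 were sets of wild-type libraries, and no label ties either set to a mutant. The labels do not tell whether libraries of a group were grown separately, and p-values therefore reflect variation among the sequenced libraries only, and that variation may be technical.

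The deposited values are not whole numbers and are called normalised reads here, since the authors' notes name edgeR and the sources used here do not give the scaling. They summed to between 44049333 and 49934976 in each library. OBE1 had 6.71 to 16 normalised reads in obe1-2, against 2011 to 2648 in the wild-type libraries. OBE2 still had 1753.5 to 1897 in obe1-2, against 3723 to 4427 in the wild-type libraries. Among the genes mutated in wrky-qm, WRKY17 had 162 to 199 normalised reads in wrky-qm, against 828 to 1129 in the wild-type libraries. WRKY21 had 571 to 697 in wrky-qm, against 920 to 973.5 in the wild-type libraries. WRKY39 had 957 to 1021, against 1349.5 to 1504. WRKY7 and WRKY11 transcripts were higher in wrky-qm than in every wild-type library, so transcript level does not check those labels. In wrky-qm_15_hz, WRKY17 had 357 to 470, WRKY39 had 790 to 878 and WRKY21 had 796 to 954, the last overlapping with wild type. WRKY7, at 1387 to 1448, and WRKY11, at 5896 to 6735, lay above every wild-type library there as well. Markers of other tissues differed between groups. The summed level of 4 seed storage genes ran from 59.9 to 90.7 normalised reads in obe1-2, 28269 to 30505 in wrky-qm_15_hz, 8887 to 9263 in wrky-qm, 349 to 462.5 in Col-0_2 and 13.5 to 23.3 in Col-0_1. The sum of 3 root markers ran from 2724 to 2908 in obe1-2, 2371 to 2528 in wrky-qm_15_hz, 8792 to 8975 in wrky-qm, 11096 to 11877 in Col-0_2 and 10741 to 11416 in Col-0_1. The sum of 3 leaf markers ran from 269994 to 293888 in obe1-2, 377675 to 438602 in wrky-qm_15_hz, 579940 to 659749 in wrky-qm, 605951 to 631410 in Col-0_2 and 705621 to 840596 in Col-0_1. The sum of 4 flower markers was 251 to 296 in obe1-2, 332 to 373 in wrky-qm_15_hz, 60.4 to 97.7 in wrky-qm, 66.7 to 122 in Col-0_2 and 38.7 to 75.6 in Col-0_1, and that of 2 pollen markers reached at most 4.2 in any library. The flower markers did not move alike. AG averaged 6.79 in obe1-2, 22.5 in wrky-qm_15_hz, 0.979 in wrky-qm, 21 in Col-0_2 and 10.3 in Col-0_1. In the same order of groups AP1 averaged 3.96, 24.3, 4.5, 5.83 and 3.44. AP3 averaged 135, 207, 4.21, 49.1 and 16.2, and PI 135, 102, 65.8, 20.6 and 22.9. Every marker of the root, leaf and flower lists reached 1 normalised read in at least 1 library of each group, while 2 of 4 seed markers did so in Col-0_2 and 1 of 4 in Col-0_1. The flower marker AP1 was at 0 in at least 1 library of wrky-qm, Col-0_2 and Col-0_1, and AG in at least 1 of wrky-qm. The part of these differences in the results on the WRKY genes was not tested. In whole seedlings, fewer cells of a type and less RNA per cell cannot be told apart.

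Most members were higher than wild type in obe1-2 and in wrky-qm_15_hz, and fewer were in wrky-qm. A gene was called higher or lower in a mutant where limma's test put it on the same side of both wild-type sets and the larger of the 2 p-values, adjusted over all genes tested, was under 0.05. A gene on opposite sides of the 2 sets got no call, and its p was set to the highest possible value without a test. In obe1-2, 31 of the 48 tested members were higher and 7 lower, against 29.2% higher and 32.5% lower among all genes tested, so that the members' share was 64.6% higher and 14.6% lower. In wrky-qm_15_hz, 27 were higher and 9 lower, which is 56.2% and 18.8% of members, against 26.5% and 27.4% of all genes. In wrky-qm, 16 were higher and 1 lower, which is 33.3% and 2.08% of members, against 15.5% and 11.4% of all genes. Under quantile scaling, wrky-qm had 14 members higher and 4 lower, against 13.1% and 17.9% of all genes. The members were chosen with earlier results of these data known, so these shares are descriptions only. The median log2 fold change of the tested members was 1.32 in obe1-2, 1.13 in wrky-qm_15_hz and 0.28 in wrky-qm, against -0.079, -0.038 and 0 over all genes tested in the same comparisons. Fold changes are given as log2 fold changes with their standard error on log2 of the normalised reads plus 1, with the average of Col-0_2 and Col-0_1 as the baseline.

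Read library by library, the normalised reads of all 51 genes summed to 67102 ± 254 in obe1-2, 48945 ± 765 in wrky-qm_15_hz, 27270 ± 926 in wrky-qm, 20129 ± 291 in Col-0_2 and 17799 ± 463 in Col-0_1 (SD, n = 3 each). The 5 groups do not overlap in this sum. All 3 obe1-2 libraries lay above all 6 wild-type libraries for 32 tested members and below them for 7, against 31.2% and 33% of all genes. For wrky-qm_15_hz the counts were 29 above and 10 below, against 28.5% and 28.3% of all genes, and for wrky-qm 18 above and 3 below, against 19.6% and 16%.

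**Figure D1:**
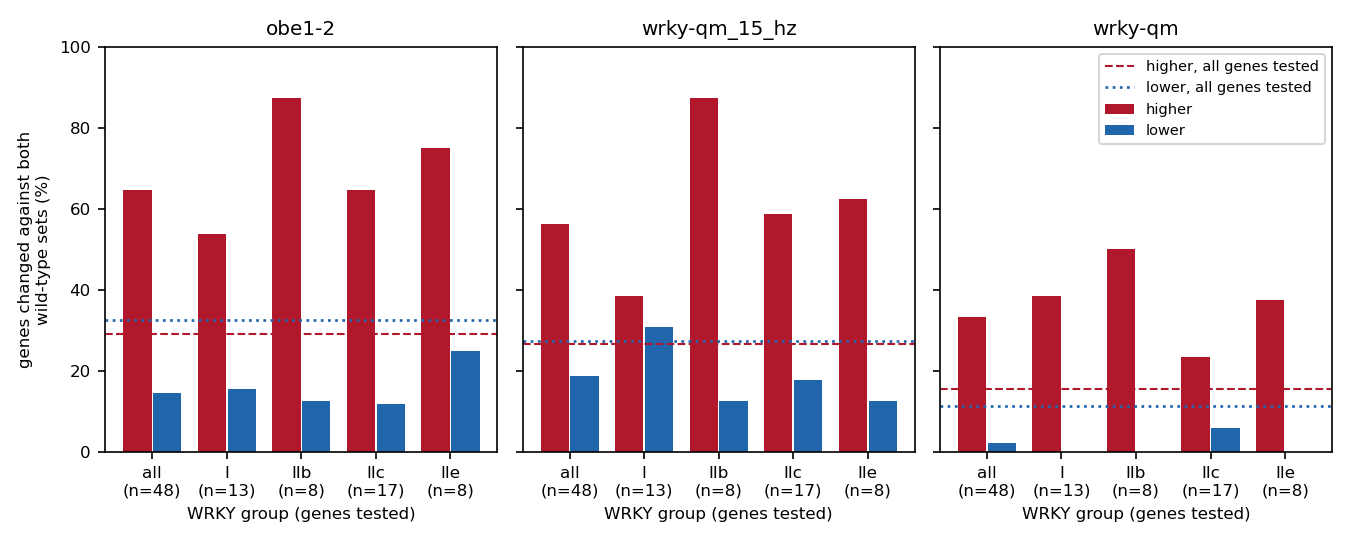
Share of tested WRKY genes called higher (red bars) or lower (blue bars) than both wild-type sets in each mutant, for all 48 and by WRKY group, as a percentage (y axis), with dashed and dotted lines at the shares among all 25085 genes tested. The red bars for all members reach 64.6% in obe1-2, 56.2% in wrky-qm_15_hz and 33.3% in wrky-qm, against lines at 29.2%, 26.5% and 15.5%.

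Counts by WRKY group are descriptions, with no test between groups, and stand against the shares of all genes given above for each mutant. All 8 genes of group IIb changed in obe1-2 and in wrky-qm_15_hz, with 7 higher and 1 lower in each, and 4 were higher in wrky-qm. In group IIe, 6 of 8 were higher and 2 lower in obe1-2, 5 higher and 1 lower in wrky-qm_15_hz, and 3 higher in wrky-qm. Group IIc had 11 of 17 higher and 2 lower in obe1-2, 10 higher and 3 lower in wrky-qm_15_hz, and 4 higher and 1 lower in wrky-qm. In group I, 7 of 13 were higher and 2 lower in obe1-2, 5 higher and 4 lower in wrky-qm_15_hz, and 5 higher in wrky-qm. WRKY55 and WRKY63, the 2 tested genes of group III, were called in no mutant.

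By pattern, 14 members were higher in all 3 mutants, namely WRKY4, WRKY6, WRKY9, WRKY22, WRKY25, WRKY27, WRKY28, WRKY29, WRKY33, WRKY47, WRKY48, WRKY49, WRKY58 and WRKY72. A further 12 were called higher in obe1-2 and wrky-qm_15_hz without a call in wrky-qm, namely WRKY8, WRKY16, WRKY26, WRKY31, WRKY36, WRKY50, WRKY51, WRKY57, WRKY61, WRKY65, WRKY71 and WRKY75. WRKY13, WRKY23, WRKY35, WRKY42 and WRKY44 were lower in obe1-2 and wrky-qm_15_hz and not called in wrky-qm. WRKY45 and WRKY2 changed in all 3 mutants but in opposite directions. No call in any mutant was made for WRKY10, WRKY12, WRKY20, WRKY34, WRKY55, WRKY56, WRKY63 and WRKY68. How many of all genes tested showed the same patterns was not counted, so the counts by pattern are descriptions only.

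**Figure D2:**
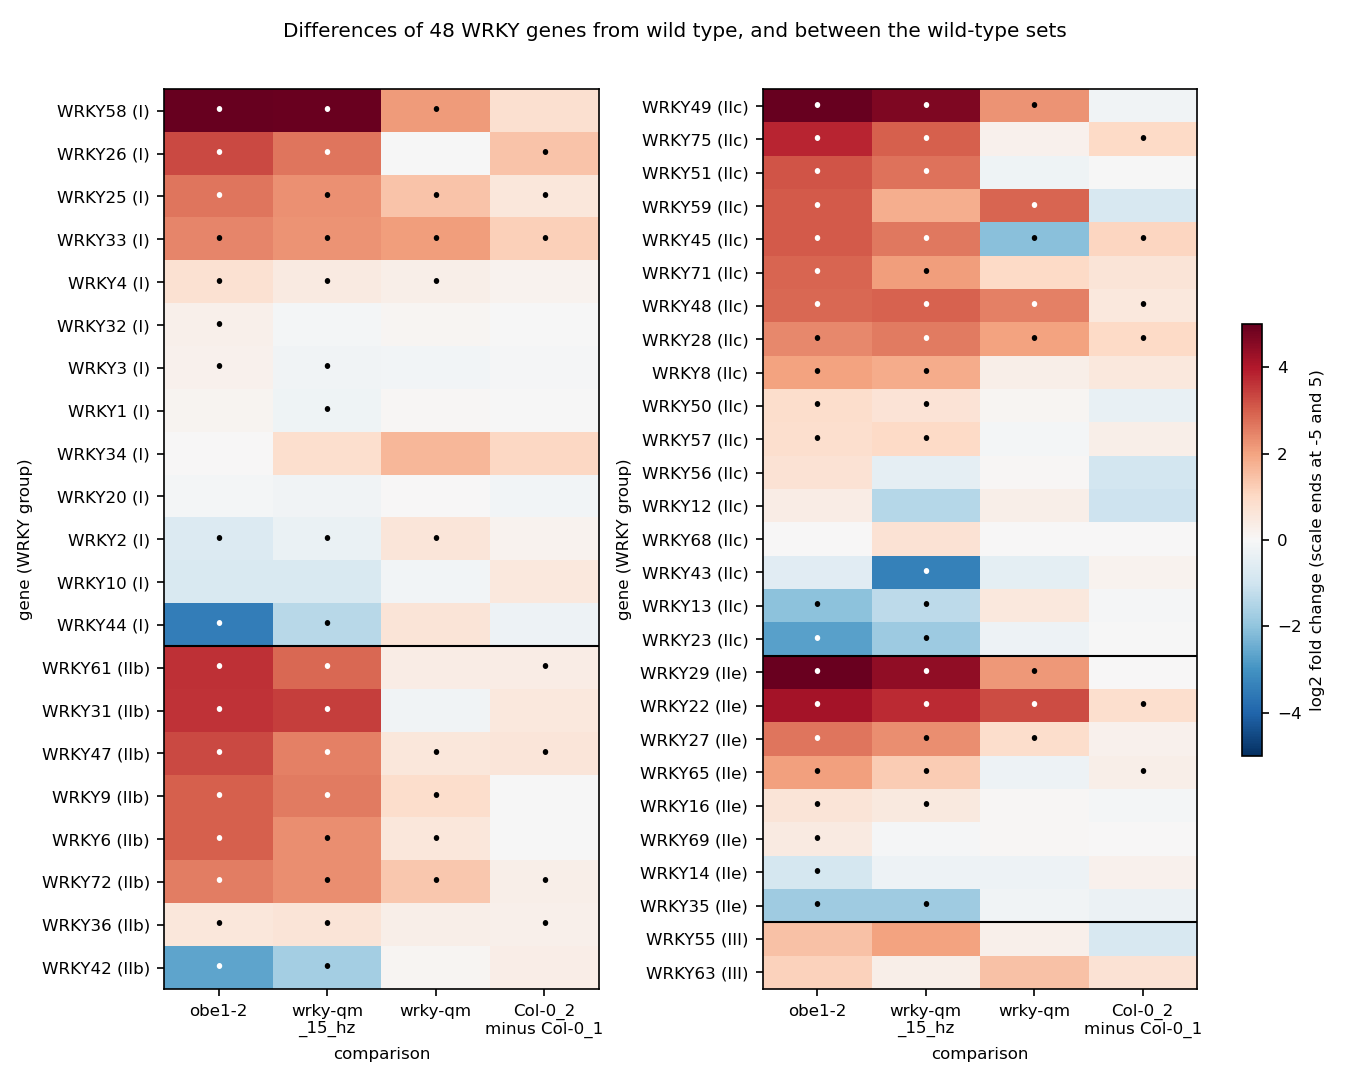
Log2 fold change (colour, red higher and blue lower) of the 48 tested WRKY genes (rows, by WRKY group) in obe1-2, wrky-qm_15_hz and wrky-qm against the average of the wild-type sets, and in Col-0_2 minus Col-0_1, with a dot where the gene was called. The obe1-2 and wrky-qm_15_hz columns are mostly red with dots, from -3.46 for WRKY44 to 5.74 for WRKY49 in obe1-2, and the wrky-qm column is paler, with 17 dots.

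WRKY22 and WRKY29 of group IIe are known to act at the end of the MAP kinase cascade started by bacterial flagellin, and both were higher in every mutant. The 250 bases before the annotated start of 4 genes are shown, in TAIR10.1 with RefSeq's annotation. WRKY33 and WRKY29 were higher in all 3 mutants and hold a pair of W-boxes each, WRKY22 was higher in all 3 and holds none, and WRKY23 was lower in obe1-2 and wrky-qm_15_hz and holds none. Each is written 5′ to 3′ on the gene's own strand and ends at the base before the start. Capitals mark the letters TTGACC or TTGACT, the 2 W-box forms searched, or their reverse complement. The windows are chr2:16107985-16108234 on the plus strand for WRKY33, chr4:12291382-12291631 on the plus strand for WRKY29, chr4:524250-524499 on the minus strand for WRKY22 and chr2:19407099-19407348 on the minus strand for WRKY23.
WRKY33: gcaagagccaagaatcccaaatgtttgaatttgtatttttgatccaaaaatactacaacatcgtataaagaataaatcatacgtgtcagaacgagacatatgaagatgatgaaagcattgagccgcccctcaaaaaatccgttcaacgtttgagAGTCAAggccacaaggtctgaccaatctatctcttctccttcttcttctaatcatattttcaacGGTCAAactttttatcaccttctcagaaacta
WRKY29: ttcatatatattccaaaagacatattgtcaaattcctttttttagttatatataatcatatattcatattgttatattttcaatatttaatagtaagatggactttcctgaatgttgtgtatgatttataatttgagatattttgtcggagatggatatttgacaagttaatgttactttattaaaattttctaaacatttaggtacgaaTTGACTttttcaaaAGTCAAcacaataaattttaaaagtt
WRKY22: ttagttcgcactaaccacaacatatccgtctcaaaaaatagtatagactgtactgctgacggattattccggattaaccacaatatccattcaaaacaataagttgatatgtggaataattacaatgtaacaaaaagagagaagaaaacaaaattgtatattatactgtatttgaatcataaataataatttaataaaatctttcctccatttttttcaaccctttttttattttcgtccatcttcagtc
WRKY23: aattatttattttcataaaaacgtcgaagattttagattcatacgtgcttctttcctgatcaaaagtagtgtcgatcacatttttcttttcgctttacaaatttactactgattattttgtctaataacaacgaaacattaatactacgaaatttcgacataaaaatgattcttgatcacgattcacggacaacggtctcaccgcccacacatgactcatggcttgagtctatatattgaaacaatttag

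WRKY29 (AT4G23550) had 5318, 5274 and 5524 normalised reads in obe1-2, 3840.4, 3779 and 3763 in wrky-qm_15_hz and 784, 703 and 888 in wrky-qm, against 197, 198 and 142 in Col-0_2 and 192, 158 and 174 in Col-0_1. Every mutant library lay above every wild-type library, with obe1-2 highest, wrky-qm_15_hz next and wrky-qm below it, and no overlap between those 3. Its log2 fold change was 4.93 ± 0.093 in obe1-2 (adjusted p = 7.86e-20), 4.43 ± 0.093 in wrky-qm_15_hz (adjusted p = 1.06e-18) and 2.16 ± 0.093 in wrky-qm (adjusted p = 6.98e-13). WRKY22 (AT4G01250) had 2214, 2281 and 2377 normalised reads in obe1-2, 1658, 1716 and 1757 in wrky-qm_15_hz and 1158, 1228 and 1244 in wrky-qm, against 187, 163 and 164 in Col-0_2 and 95.96, 84.7 and 102 in Col-0_1. The same order held without overlap, and here Col-0_2 also lay above Col-0_1. WRKY22 had a log2 fold change of 4.17 ± 0.073 in obe1-2, 3.75 ± 0.073 in wrky-qm_15_hz and 3.25 ± 0.073 in wrky-qm, with adjusted p of 1.33e-19, 2.24e-18 and 1.35e-16. In wrky-qm its value was 2.82 against Col-0_2 alone and 3.67 against Col-0_1 alone.

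WRKY27, a relative of WRKY22 and WRKY29 known from symptom development in bacterial wilt, was also higher in all 3. WRKY27 (AT5G52830) had 1453, 1409.9 and 1578 normalised reads in obe1-2, 1231, 1146 and 1041 in wrky-qm_15_hz and 415, 379 and 480.1 in wrky-qm, against 224, 249 and 268 in Col-0_2 and 237, 225 and 183 in Col-0_1. Its libraries of the 3 mutants did not overlap with each other or with wild type, and the log2 fold change was 2.68 in obe1-2, 2.31 in wrky-qm_15_hz and 0.88 in wrky-qm. WRKY16, whose protein is joined to a TIR-NBS-LRR immune receptor, was called higher in obe1-2 by 0.66 ± 0.068 and in wrky-qm_15_hz by 0.48 ± 0.068 on the log2 scale. WRKY65 averaged 6238 ± 277 normalised reads in obe1-2, 3709 ± 129 in wrky-qm_15_hz, 1270.2 ± 62.4 in wrky-qm, 1670.5 ± 46.6 in Col-0_2 and 1380.5 ± 88.8 in Col-0_1 (SD, n = 3 each). It was called higher in obe1-2, by 2.04, and in wrky-qm_15_hz, by 1.29, while its value in wrky-qm was -0.26 (adjusted p = 0.123). WRKY69 was called in obe1-2, at 0.45 ± 0.14 (adjusted p = 0.0217), and that call was lost when any of 5 libraries was left out, 2 of Col-0_1, 2 of Col-0_2 and 1 of obe1-2, with adjusted p of 0.0577 to 0.0834.

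The remaining genes of group IIe were lower in obe1-2. WRKY35 (AT2G34830) had 42.2, 46.9 and 48.6 normalised reads in obe1-2, 45.6, 62.7 and 34 in wrky-qm_15_hz and 114, 127 and 194 in wrky-qm, against 149.8, 139 and 147 in Col-0_2 and 168, 174 and 193 in Col-0_1. The obe1-2 and wrky-qm_15_hz libraries overlapped each other and all lay below wild type, at log2 fold changes of -1.79 ± 0.21 and -1.78 ± 0.21. WRKY14 (AT1G30650) had 243, 243 and 252 normalised reads in obe1-2, 379.6, 360 and 400.2 in wrky-qm_15_hz and 351, 397 and 396 in wrky-qm, against 466, 485 and 526 in Col-0_2 and 475, 426 and 380.5 in Col-0_1. All 3 obe1-2 libraries lay below every other library, and the fall in obe1-2 was -0.89 ± 0.091 (adjusted p = 9.62e-07), while wrky-qm_15_hz and wrky-qm overlapped with the wild-type libraries.

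Group I holds WRKY33, which is known for resistance to necrotrophic fungi and for switching on genes of the defence compound camalexin, and its relatives WRKY25 and WRKY26. WRKY33 (AT2G38470) had 4693, 4794 and 5033 normalised reads in obe1-2, 4364, 4146 and 4270 in wrky-qm_15_hz and 3775, 3836 and 3917 in wrky-qm, against 1370.5, 1378 and 1310.5 in Col-0_2 and 561, 633 and 586 in Col-0_1. Its level in each of the 3 mutants was above wild type in every library, and Col-0_2 stood above Col-0_1 without overlap. The log2 fold change of WRKY33 was 2.43 ± 0.043 in obe1-2 (adjusted p = 2.94e-18), 2.25 ± 0.043 in wrky-qm_15_hz (adjusted p = 3.84e-17) and 2.1 ± 0.043 in wrky-qm (adjusted p = 6.73e-16). The choice of wild-type set moved these values. Against Col-0_2 alone they were 1.84, 1.65 and 1.505, and against Col-0_1 alone 3.03, 2.84 and 2.69, in the same order of mutants. Its W-boxes, in capitals above, lie 96 to 91 and 32 to 27 bases before the annotated start, and those of WRKY29 lie 40 to 35 and 26 to 21 bases before it.

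WRKY25 stood in the same order as WRKY33, with wider steps between the mutants. WRKY25 (AT2G30250) had 2848, 3404 and 3389 normalised reads in obe1-2, 2458, 2299 and 2437 in wrky-qm_15_hz and 1218, 1361 and 1450.2 in wrky-qm, against 621, 639 and 566 in Col-0_2 and 464, 404 and 359.5 in Col-0_1. No mutant library overlapped with wild type. Its log2 fold change was 2.68 in obe1-2, 2.27 in wrky-qm_15_hz and 1.43 in wrky-qm. WRKY26, which is known with WRKY25 and WRKY33 from heat responses, averaged 3684 ± 106 normalised reads in obe1-2, 2368 ± 87.7 in wrky-qm_15_hz, 368 ± 60.2 in wrky-qm, 617 ± 52.2 in Col-0_2 and 227 ± 17.3 in Col-0_1 (SD, n = 3 each). It was called higher in obe1-2, by 3.297, and in wrky-qm_15_hz, by 2.66. All 3 wrky-qm libraries lay between the wild-type sets, and no call was made (adjusted p = 1).

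WRKY58, known as a negative regulator of systemic acquired resistance, had few reads in wild type. WRKY58 (AT3G01080) had 399, 391 and 523 normalised reads in obe1-2, 229.9, 283 and 286 in wrky-qm_15_hz and 47.9, 39.8 and 25.9 in wrky-qm, against 19.98, 15.2 and 3.44 in Col-0_2 and 1.798, 10.3 and 8.27 in Col-0_1. Its 6 wild-type libraries all lay below every mutant library, and wrky-qm lay below both other mutants. WRKY58 had a log2 fold change of 5.64 ± 0.44 in obe1-2, 4.93 ± 0.44 in wrky-qm_15_hz and 2.11 ± 0.44 in wrky-qm. Its call in wrky-qm (adjusted p = 0.0129) was lost without wrky-qm replicate 1, at adjusted p = 0.0656, and without Col-0_2 replicate 3, at adjusted p = 0.122.

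WRKY3 and WRKY4 are close relatives known for resistance to necrotrophic pathogens. WRKY4 (AT1G13960) had 1711, 1717 and 1688 normalised reads in obe1-2, 1343, 1504 and 1354 in wrky-qm_15_hz and 1231, 1161 and 1312 in wrky-qm, against 1046, 1109 and 1081 in Col-0_2 and 1050, 901 and 931 in Col-0_1. Each mutant lay above wild type in all libraries. The rises of WRKY4 were 0.75 ± 0.057 in obe1-2, 0.46 ± 0.057 in wrky-qm_15_hz and 0.28 ± 0.057 in wrky-qm on the log2 scale, the last of them with adjusted p = 0.0331. This call in wrky-qm was lost without wrky-qm replicate 1 or 3 or Col-0_2 replicate 1 or 3, at adjusted p of 0.0713 to 0.169, and under quantile scaling, at 0.216. WRKY3 was called higher in obe1-2, at 0.23 ± 0.043, and lower in wrky-qm_15_hz, at -0.17 ± 0.043, both small steps. Under quantile scaling its value in obe1-2 was 0.027 (adjusted p = 1), and its call in wrky-qm_15_hz was lost under TMM scaling (adjusted p = 0.0837) and without Col-0_2 replicate 2 (0.066) or wrky-qm_15_hz replicate 2 (0.0764).

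WRKY2, known for zygote polarity and for pollen, moved in opposite directions. WRKY2 (AT5G56270) had 409, 482 and 473 normalised reads in obe1-2, 574, 572 and 590 in wrky-qm_15_hz and 930.3, 1205 and 1154 in wrky-qm, against 718, 772 and 793 in Col-0_2 and 698, 669.5 and 675 in Col-0_1. The obe1-2 and wrky-qm_15_hz libraries lay below every wild-type library and the wrky-qm libraries above. Its log2 fold change was -0.67 ± 0.078 in obe1-2 (adjusted p = 7.34e-06), -0.31 ± 0.078 in wrky-qm_15_hz (adjusted p = 0.0337) and 0.598 ± 0.078 in wrky-qm (adjusted p = 0.000113). The call in wrky-qm_15_hz was lost under TMM scaling (adjusted p = 0.0854) and when any 1 of 5 libraries was left out, at adjusted p of 0.0541 to 0.0903. Those libraries were the 3 of Col-0_1 and wrky-qm_15_hz replicates 1 and 2.

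WRKY44, also called TTG2, acts in trichomes and the seed coat and is also expressed in root epidermis. WRKY44 (AT2G37260) had 26.6, 15.3 and 9.7 normalised reads in obe1-2, 85.3, 70.01 and 59.6 in wrky-qm_15_hz and 345, 235 and 303 in wrky-qm, against 179.8, 171 and 159 in Col-0_2 and 173, 219 and 216 in Col-0_1. The obe1-2 libraries were lowest and the wrky-qm_15_hz libraries next, both below all wild-type libraries, while the wrky-qm libraries lay above them all. WRKY44 fell by 3.46 on the log2 scale in obe1-2 (adjusted p = 6.37e-10) and fell by 1.37 in wrky-qm_15_hz (adjusted p = 0.000572). Its value in wrky-qm, 0.65 ± 0.24, did not pass (adjusted p = 0.202). The root marker sum was lower than in every wild-type library in all 3 mutants. It was 2724 to 2908 in obe1-2, 2371 to 2528 in wrky-qm_15_hz and 8792 to 8975 in wrky-qm. The part of root tissue in the values of WRKY44 was not tested.

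The remaining members of group I showed small or no changes. WRKY32 was called higher in obe1-2, at 0.25 ± 0.061. WRKY1 was called lower in wrky-qm_15_hz, at -0.198 ± 0.048, and WRKY20 in no mutant, with values of -0.087, -0.19 and 0.017 in obe1-2, wrky-qm_15_hz and wrky-qm. WRKY10, known as MINI3 from endosperm growth, and WRKY34, known from pollen, had few reads and were not called. WRKY10 averaged 0.956 ± 1.65 normalised reads in wrky-qm, 1.29 ± 1.11 in Col-0_2 and 0.626 ± 1.08 in Col-0_1 (SD, n = 3 each) and was at 0 in obe1-2 and wrky-qm_15_hz. WRKY34 averaged 0.7103 ± 1.21 in obe1-2, 4.18 ± 7.05 in wrky-qm_15_hz, 5.95 ± 5.45 in wrky-qm and 1.29 ± 1.11 in Col-0_2 and was at 0 in Col-0_1.

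Group IIb holds WRKY6, known from senescence and defence and for repressing PHO1, a gene of phosphate loading into the xylem, with its relatives WRKY31 and WRKY42. WRKY6 (AT1G62300) had 7580.2, 6975 and 7031 normalised reads in obe1-2, 4521, 4573 and 4601 in wrky-qm_15_hz and 1278, 1389.6 and 1418 in wrky-qm, against 981, 891 and 857 in Col-0_2 and 936, 863 and 950 in Col-0_1. The obe1-2 libraries stood highest, the wrky-qm_15_hz libraries next, and the wrky-qm libraries still above wild type, with no overlap. WRKY6 had a log2 fold change of 2.98 ± 0.0502 in obe1-2, 2.32 ± 0.0502 in wrky-qm_15_hz and 0.58 ± 0.0502 in wrky-qm, with adjusted p of 1.29e-20, 1.79e-18 and 7.39e-08. WRKY31 (AT4G22070) had 861, 958 and 809 normalised reads in obe1-2, 849, 821 and 674 in wrky-qm_15_hz and 44.2, 65.3 and 81.3 in wrky-qm, against 84.9, 75.3 and 94.6 in Col-0_2 and 61.8, 73.4 and 43.2 in Col-0_1. Both obe1-2 and wrky-qm_15_hz lay far above wild type, with a small overlap between them, and wrky-qm overlapped with wild type. The rise of WRKY31 was 3.62 ± 0.18 in obe1-2 and 3.45 ± 0.18 in wrky-qm_15_hz, while the value in wrky-qm was -0.18 ± 0.18 (adjusted p = 1).

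WRKY42, which like WRKY6 is known to repress PHO1, went the other way. WRKY42 (AT4G04450) had 9.81, 22.5 and 6.501 normalised reads in obe1-2, 21.6, 24.4 and 21.3 in wrky-qm_15_hz and 57.2, 101 and 88.9 in wrky-qm, against 96.9, 86.5 and 72.8 in Col-0_2 and 67.5, 70.3 and 61.9 in Col-0_1. The libraries of obe1-2 and wrky-qm_15_hz overlapped each other and lay below wild type, and wrky-qm overlapped with wild type. WRKY42 fell by 2.62 on the log2 scale in obe1-2 and fell by 1.702 in wrky-qm_15_hz. It was the only 1 of the 8 genes of group IIb that was lower in either.

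WRKY72 is known from basal immunity, and WRKY61 is its close relative. WRKY72 (AT5G15130) had 1604, 1549 and 1415 normalised reads in obe1-2, 1356, 1184 and 1305 in wrky-qm_15_hz and 606, 643 and 719.5 in wrky-qm, against 267, 277 and 301 in Col-0_2 and 263, 223 and 206 in Col-0_1. Every mutant library lay above wild type, and WRKY72 rose by 2.58 in obe1-2, 2.33 in wrky-qm_15_hz and 1.36 in wrky-qm on the log2 scale. WRKY61 (AT1G18860) had 1789, 2096 and 1792 normalised reads in obe1-2, 1143, 1159 and 987 in wrky-qm_15_hz and 187, 199 and 198 in wrky-qm, against 164, 194 and 155 in Col-0_2 and 131, 124 and 135 in Col-0_1. Only 2 of the 3 wrky-qm libraries exceeded all wild-type libraries, and the other mutants lay far above. WRKY61 rose by 3.65 in obe1-2 and 2.87 in wrky-qm_15_hz, and its value in wrky-qm was 0.38 (adjusted p = 0.248).

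WRKY47 and WRKY9 had the same order of groups. WRKY47 (AT4G01720) had 5143, 5301 and 4837 normalised reads in obe1-2, 3113, 2972 and 2838 in wrky-qm_15_hz and 812, 754 and 741 in wrky-qm, against 630.3, 588 and 702 in Col-0_2 and 415, 459.7 and 374 in Col-0_1. All mutant libraries stood above wild type. Its rises were 3.303 ± 0.066 in obe1-2, 2.53 ± 0.066 in wrky-qm_15_hz and 0.58 ± 0.066 in wrky-qm, and the call in wrky-qm (adjusted p = 0.0104) was lost without wrky-qm replicate 1 (0.0608) or Col-0_2 replicate 2 (0.0748) and under quantile scaling (0.0581). WRKY9 (AT1G68150) had 1933, 1807 and 1844 normalised reads in obe1-2, 1356, 1348 and 1495 in wrky-qm_15_hz and 376, 482 and 427 in wrky-qm, against 242, 225 and 229 in Col-0_2 and 271, 217 and 215 in Col-0_1. No 2 of the mutants overlapped, and the rises of WRKY9 were 2.996, 2.58 and 0.87 on the log2 scale in obe1-2, wrky-qm_15_hz and wrky-qm. WRKY36, known from hypocotyl growth through HY5, was called higher in obe1-2 by 0.55 ± 0.0795 and in wrky-qm_15_hz by 0.64 ± 0.0795.

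**Figure D3:**
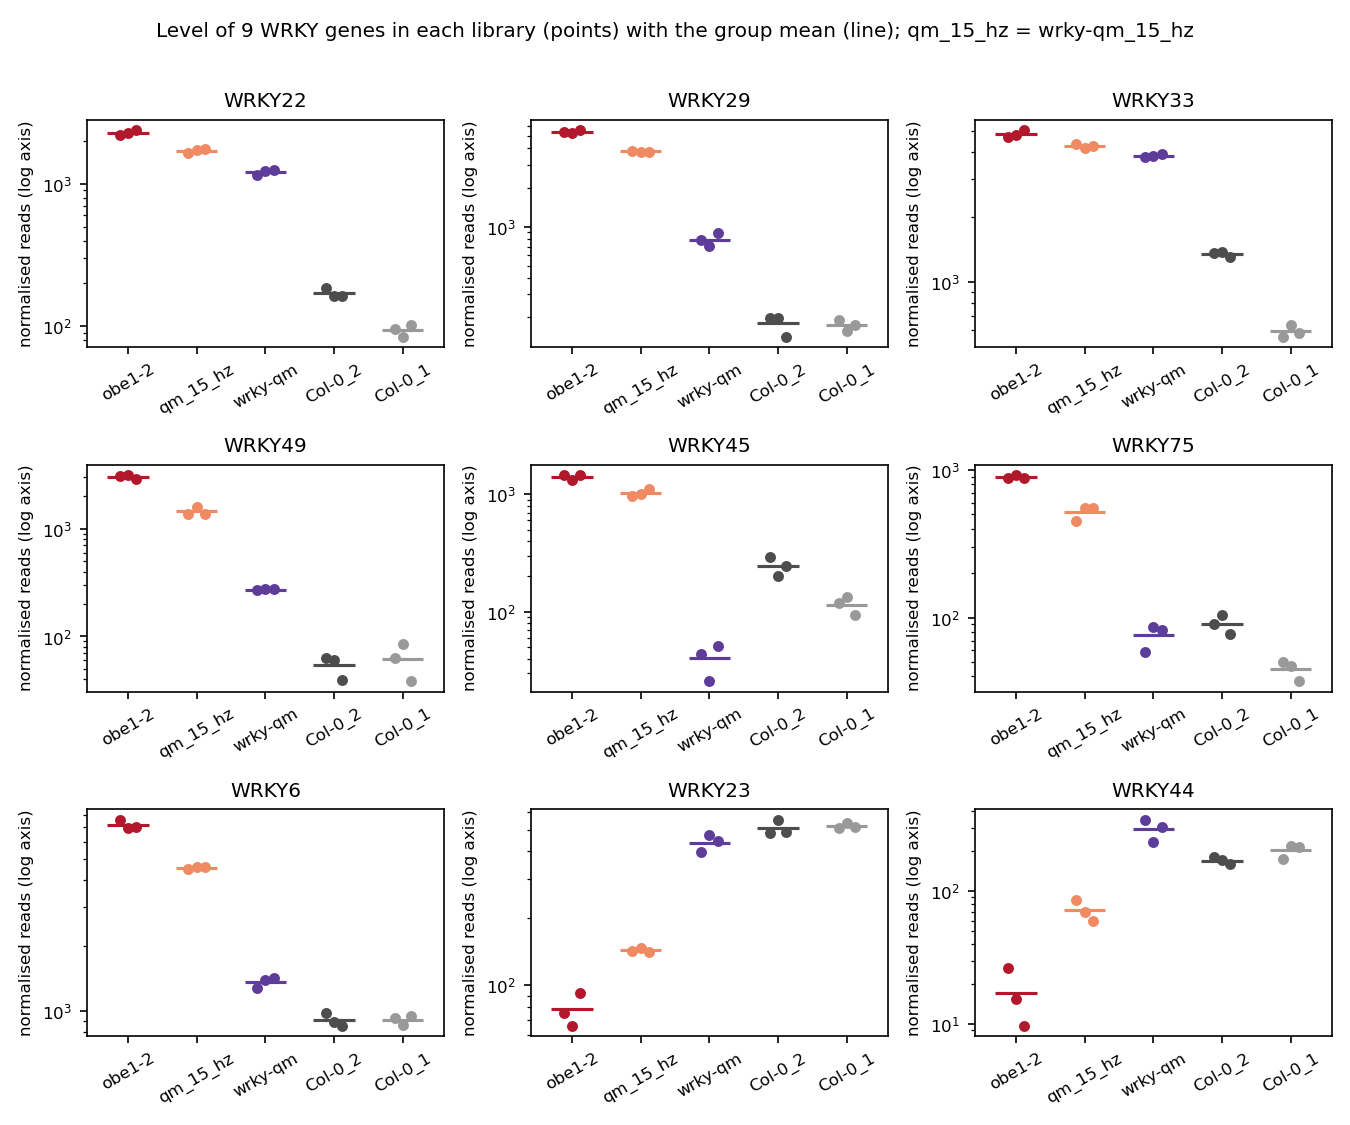
Normalised reads (y axis, log scale, each panel with its own range) of 9 WRKY genes in each of the 15 libraries, with obe1-2 at the left and Col-0_1 at the right, points for libraries and lines for group means. WRKY22, WRKY29, WRKY33, WRKY49 and WRKY6 stand above wild type in all 3 mutants, WRKY45 lies below wild type in wrky-qm, and WRKY23 and WRKY44 lie below it in obe1-2 and wrky-qm_15_hz.

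Group IIc has 17 members here. WRKY49 (AT5G43290) had 3102, 3155 and 2875 normalised reads in obe1-2, 1358, 1595 and 1384 in wrky-qm_15_hz and 268, 276 and 273 in wrky-qm, against 62.9, 59.98 and 39.4 in Col-0_2 and 63.7, 84.8 and 38.4 in Col-0_1. The 5 groups were ordered as obe1-2, wrky-qm_15_hz, wrky-qm and wild type, with no overlap between the mutants or with wild type. WRKY49 had a log2 fold change of 5.74 ± 0.17 in obe1-2 (adjusted p = 3.77e-16), 4.66 ± 0.17 in wrky-qm_15_hz and 2.26 ± 0.17 in wrky-qm. In obe1-2 its order with WRKY58 turned with the wild-type set, with 5.82 for WRKY49 and 5.24 for WRKY58 against Col-0_2 alone and 5.66 and 6.03 against Col-0_1 alone. As a ratio to the mean of the 6 wild-type libraries its level was 52.3 in obe1-2, 24.8 in wrky-qm_15_hz and 4.68 in wrky-qm.

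WRKY48, known to repress basal defence, and WRKY28, known to activate the salicylate gene ICS1, differed less between mutants. WRKY48 (AT5G49520) had 1190.5, 1210.1 and 1232 normalised reads in obe1-2, 1267, 1325 and 1202 in wrky-qm_15_hz and 921, 909 and 1021 in wrky-qm, against 197, 194 and 202 in Col-0_2 and 114, 155 and 142 in Col-0_1. The wrky-qm_15_hz and obe1-2 libraries overlapped and the wrky-qm libraries lay below both, all of them above wild type. WRKY48 rose by 2.88 ± 0.085 in obe1-2, 2.94 ± 0.085 in wrky-qm_15_hz and 2.53 ± 0.085 in wrky-qm. WRKY28 (AT4G18170) had 197, 184 and 140.1 normalised reads in obe1-2, 206, 146 and 234 in wrky-qm_15_hz and 121, 116 and 152 in wrky-qm, against 34.96, 45.8 and 54.9 in Col-0_2 and 27.6, 10.7 and 35.1 in Col-0_1. The 3 mutants overlapped with each other and lay above wild type, at log2 fold changes of 2.42 ± 0.29, 2.58 ± 0.29 and 2.01 ± 0.29 in obe1-2, wrky-qm_15_hz and wrky-qm.

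WRKY45 and WRKY75 are close relatives known from phosphate starvation, where WRKY45 activates the phosphate transporter gene PHT1;1, and WRKY75 also from senescence. WRKY45 (AT3G01970) had 1462, 1332 and 1446 normalised reads in obe1-2, 966, 1013 and 1112 in wrky-qm_15_hz and 43.9, 25.6 and 51.3 in wrky-qm, against 293, 200.5 and 244 in Col-0_2 and 118, 134 and 94.2 in Col-0_1. The obe1-2 and wrky-qm_15_hz libraries lay above every wild-type library, and the wrky-qm libraries lay below every one. WRKY45 rose by 3.08 ± 0.17 in obe1-2 (adjusted p = 2.19e-10) and 2.62 ± 0.17 in wrky-qm_15_hz (adjusted p = 9.1e-09), and fell by 2.08 in wrky-qm (adjusted p = 2.17e-06). It was the only member called lower in wrky-qm, and there its value was -2.62 against Col-0_2 and -1.53 against Col-0_1. WRKY75 (AT5G13080) had 879, 922 and 885 normalised reads in obe1-2, 452, 547 and 553 in wrky-qm_15_hz and 58.3, 86.7 and 82.1 in wrky-qm, against 90.9, 105 and 77.4 in Col-0_2 and 50.5, 47.2 and 37.1 in Col-0_1. The first 2 of these mutants again lay above all wild-type libraries, and wrky-qm lay within the wild-type range. WRKY75 rose by 3.796 ± 0.16 in obe1-2 and 3 ± 0.16 in wrky-qm_15_hz, with 0.23 ± 0.16 in wrky-qm (adjusted p = 1).

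WRKY23 is known as an auxin-responsive gene of root development. WRKY23 (AT2G47260) had 75.5, 65.8 and 92.8 normalised reads in obe1-2, 143, 148 and 141 in wrky-qm_15_hz and 397, 474 and 443 in wrky-qm, against 484, 555 and 491 in Col-0_2 and 509, 535 and 516 in Col-0_1. The obe1-2 libraries were lowest and wrky-qm_15_hz next, and the wrky-qm libraries lay just below the wild-type range. WRKY23 fell by 2.72 on the log2 scale in obe1-2 (adjusted p = 9.87e-14) and fell by 1.83 in wrky-qm_15_hz (adjusted p = 1.46e-10), while the value in wrky-qm, -0.24 ± 0.12, did not pass (adjusted p = 0.29). The root marker sum was below wild type in all 3 mutants. Its member CASP1 averaged 1064 ± 104 in obe1-2, 331 ± 15.1 in wrky-qm_15_hz, 1141 ± 17.5 in wrky-qm, 1332 ± 98.1 in Col-0_2 and 1266 ± 36.8 in Col-0_1 (SD, n = 3 each). COBL9 averaged 3.6, 54.5, 115, 313 and 341 in the same order of groups, and PIP2;2 averaged 1728, 2039, 7623, 9822 and 9387. The part of these root markers in the values of WRKY23 was not tested.

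WRKY12 and WRKY13 are known to act in opposite ways on flowering time, and WRKY12 also holds back secondary walls in the pith. WRKY13 (AT4G39410) had 5.55, 11.9 and 13.7 normalised reads in obe1-2, 15.7, 19.9 and 16.8 in wrky-qm_15_hz and 47.1, 77.5 and 73.5 in wrky-qm, against 40.95, 40.7 and 48.2 in Col-0_2 and 56.3, 40.5 and 39.9 in Col-0_1. Both obe1-2 and wrky-qm_15_hz lay below wild type without overlap. WRKY13 fell by 2.07 in obe1-2 and fell by 1.29 in wrky-qm_15_hz, and its value in wrky-qm was 0.54 (adjusted p = 0.399). The call in obe1-2 was lost under quantile scaling, at -0.86 (adjusted p = 0.0565). WRKY12 (AT2G44745) had 8.93, 11.2 and 36.5 normalised reads in obe1-2, 2.52, 4.42 and 4.44 in wrky-qm_15_hz and 14.9, 24.4 and 8.58 in wrky-qm, against 5.99, 14.2 and 5.44 in Col-0_2 and 16.1, 15.6 and 20.2 in Col-0_1. Its wrky-qm_15_hz libraries lay below wild type and the other mutants overlapped with it, and no mutant was called, with adjusted p of 1, 0.171 and 1 in obe1-2, wrky-qm_15_hz and wrky-qm.

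WRKY50 and WRKY51 are known from the repression of jasmonate signalling by salicylate. WRKY51 (AT5G64810) had 75.03, 138 and 105 normalised reads in obe1-2, 74.3, 84.1 and 67.2 in wrky-qm_15_hz and 5.46, 14.2 and 9.65 in wrky-qm, against 3.99, 27.4 and 10.1 in Col-0_2 and 6.52, 8.16 and 22.4 in Col-0_1. The first 2 mutants lay above every wild-type library, with rises of 3.15 ± 0.47 and 2.702 ± 0.47, and wrky-qm overlapped with wild type. WRKY50 was called higher in obe1-2, at 0.89 ± 0.17 (adjusted p = 0.00315), and in wrky-qm_15_hz, at 0.698 ± 0.17 (adjusted p = 0.0299). Its call in wrky-qm_15_hz was lost without Col-0_1 replicate 1 or 2 or wrky-qm_15_hz replicate 1 or 2, at adjusted p of 0.0574 to 0.128.

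Among the other genes of group IIc, WRKY57, known from drought tolerance, rose by 0.82 ± 0.095 in obe1-2 and 0.98 ± 0.095 in wrky-qm_15_hz. WRKY71, known from branching and flowering, rose by 2.91 ± 0.26 in obe1-2 and 2.1 ± 0.26 in wrky-qm_15_hz, and all 3 of its wrky-qm libraries lay above wild type without a call (adjusted p = 0.131). WRKY8 rose by 2.02 ± 0.24 in obe1-2 and 1.85 ± 0.24 in wrky-qm_15_hz. These 3 share the direction of most of the group.

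A few genes of group IIc had low levels, where 1 library can decide a call. WRKY43 (AT2G46130) had 20.6, 23.97 and 25.4 normalised reads in obe1-2, 4.69, 0.0851 and 5.47 in wrky-qm_15_hz and 18.5, 29.6 and 26.1 in wrky-qm, against 30.96, 39.6 and 40.8 in Col-0_2 and 40.98, 43.7 and 19.5 in Col-0_1. The wrky-qm_15_hz libraries lay below all others. WRKY43 fell by 3.39 in wrky-qm_15_hz (adjusted p = 1.77e-05), with no call in obe1-2 (adjusted p = 0.494) or wrky-qm (adjusted p = 0.79). WRKY59 (AT2G21900) had 19.3, 18.5 and 12.8 normalised reads in obe1-2, 4.94, 6.66 and 7.75 in wrky-qm_15_hz and 21.6, 15.3 and 9.56 in wrky-qm, against 0, 0.00412 and 2.85 in Col-0_2 and 0, 6.62 and 1.78 in Col-0_1. The obe1-2 and wrky-qm libraries lay above wild type and the wrky-qm_15_hz libraries overlapped with it. WRKY59 was called higher in obe1-2 (adjusted p = 0.00123) and in wrky-qm (adjusted p = 0.00555), and the call in wrky-qm was lost without Col-0_1 replicate 1 (adjusted p = 0.0508). WRKY56 (AT1G64000) had 38.7, 45.5 and 23.5 normalised reads in obe1-2, 18.9, 11.3 and 15.6 in wrky-qm_15_hz and 19.5, 27.5 and 19.3 in wrky-qm, against 16.98, 14.2 and 13.8 in Col-0_2 and 22.6, 22.8 and 46.3 in Col-0_1. All mutants overlapped with wild type and none was called. WRKY68 had reads in wrky-qm_15_hz and none elsewhere, at a mean of 1.15 ± 1.93 (SD, n = 3), and passed the filter only through that group.

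Group III had few reads. WRKY63, also called ABO3 and known from abscisic acid and drought responses, averaged 17.2 ± 6.16 normalised reads in obe1-2, 8.79 ± 3.64 in wrky-qm_15_hz, 22.9 ± 13.8 in wrky-qm, 9.17 ± 2.63 in Col-0_2 and 5.56 ± 3.39 in Col-0_1 (SD, n = 3 each). WRKY64 and WRKY67 lie beside it on chromosome 1 and are close relatives of it, so reads could be split among them, and both were at 0 in every library. WRKY55, known from senescence, averaged 17.6 ± 8.28 in obe1-2, 24.4 ± 4.48 in wrky-qm_15_hz, 6.47 ± 0.317 in wrky-qm, 6.84 ± 7.57 in Col-0_2 and 9.37 ± 8.63 in Col-0_1. Its wrky-qm_15_hz libraries lay above wild type without a call (adjusted p = 0.0727).

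The design also allows the mutants to be compared directly, with 1 further WRKY15 copy mutated in wrky-qm_15_hz as the labelled difference from wrky-qm. WRKY15 transcript ran from 2577 to 2713 normalised reads in wrky-qm_15_hz and 2977.5 to 3211 in wrky-qm. In Col-0_2 it ran from 927 to 1056 and in Col-0_1 from 698 to 862, so both mutants lay above wild type. More members were higher than lower in wrky-qm_15_hz. Of the 48, 27 were higher and 11 lower in wrky-qm_15_hz than in wrky-qm, against 29.5% higher and 34.9% lower among all genes. The largest differences were those of WRKY45, at 4.696 ± 0.197 (adjusted p = 9.35e-15), WRKY31, at 3.63 ± 0.21, WRKY51, at 2.901 ± 0.54, and WRKY58, at 2.82 ± 0.504. On the lower side stood WRKY43, at -2.88 ± 0.53, WRKY44, at -2.02 ± 0.28, WRKY13, at -1.83 ± 0.36, and WRKY42, at -1.79 ± 0.36. Group IIb had 7 of 8 higher and 1 lower, and group I had 5 of 13 in each direction.

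No label says which wild-type set belongs to which mutant, and the sets differ. Taken as a difference of effects, wrky-qm_15_hz against Col-0_2 minus wrky-qm against Col-0_1, 20 members were higher and 11 lower, against 23% and 27.3% of all genes. That pairing of sets was an assumed one. Every library of Col-0_1 held 8177 tiny positive values in place of zeros and every library of wrky-qm 7949. The libraries of Col-0_2, obe1-2 and wrky-qm_15_hz held 0. No label explains this split. The assumed pairing runs along it, and direct comparisons of wrky-qm with the other mutants cross it. The part of the split in those comparisons was not tested. The difference of effects moved some members. It turned the direction of WRKY33, with -1.04 ± 0.0699 (adjusted p = 7.14e-11) in place of 0.15 ± 0.049 (adjusted p = 0.0124), and of WRKY22, with -0.36 ± 0.12 (adjusted p = 0.0162) in place of 0.499 ± 0.084 (adjusted p = 2.46e-05). The value of WRKY48 became -0.12 ± 0.14 (adjusted p = 0.485) in place of 0.41 ± 0.098. WRKY45 kept its direction, at 3.61 ± 0.28.

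Between obe1-2 and wrky-qm, 29 members were higher and 7 lower in obe1-2, against 31.1% and 38.9% of all genes. WRKY45 differed most, at 5.15 ± 0.197 (adjusted p = 1.03e-15), followed by WRKY31, at 3.801 ± 0.21, WRKY75, at 3.57 ± 0.18, and WRKY58, at 3.53 ± 0.504. The largest falls were those of WRKY44, at -4.11 ± 0.28, WRKY42, at -2.71 ± 0.36, WRKY13, at -2.61 ± 0.36, and WRKY23, at -2.48 ± 0.13. As a difference of effects with the same assumed pairing, 24 were higher and 8 lower, against 26.2% and 33.3% of all genes, and WRKY33 turned to -0.86 ± 0.0699 (adjusted p = 8.63e-10), in place of 0.33 ± 0.049.

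The remaining pair of mutants, obe1-2 and wrky-qm_15_hz, differed in most members. In obe1-2, 23 members were higher than in wrky-qm_15_hz and 5 lower, against 20.3% and 26.1% of all genes. The median difference over members was 0.34 on the log2 scale, against -0.026 over all genes. WRKY43 differed by 2.83 ± 0.53 (adjusted p = 0.000167), WRKY12 by 1.82 ± 0.53, WRKY56 by 1.16 ± 0.39 and WRKY49 by 1.08 ± 0.202. The members lower in obe1-2 were WRKY44, at -2.09 ± 0.28, WRKY42, at -0.92 ± 0.36, WRKY23, at -0.89 ± 0.13, WRKY14, at -0.62 ± 0.105, and WRKY2, at -0.35 ± 0.0905. The call on WRKY42 was lost under 15 alternatives, among them the loss of any 1 library of wrky-qm_15_hz, Col-0_2 or Col-0_1, of obe1-2 replicate 1 or 3 or of wrky-qm replicate 3, with adjusted p of 0.0521 to 0.924. That on WRKY12 was lost without obe1-2 replicate 3 (adjusted p = 0.0706), and that on WRKY56 without obe1-2 replicate 1 or 2 or wrky-qm_15_hz replicate 2 (adjusted p of 0.0562 to 0.0802). Of the 23 higher members, 7 were in group I, 5 in group IIb, 6 in group IIc and 5 in group IIe.

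**Figure D4:**
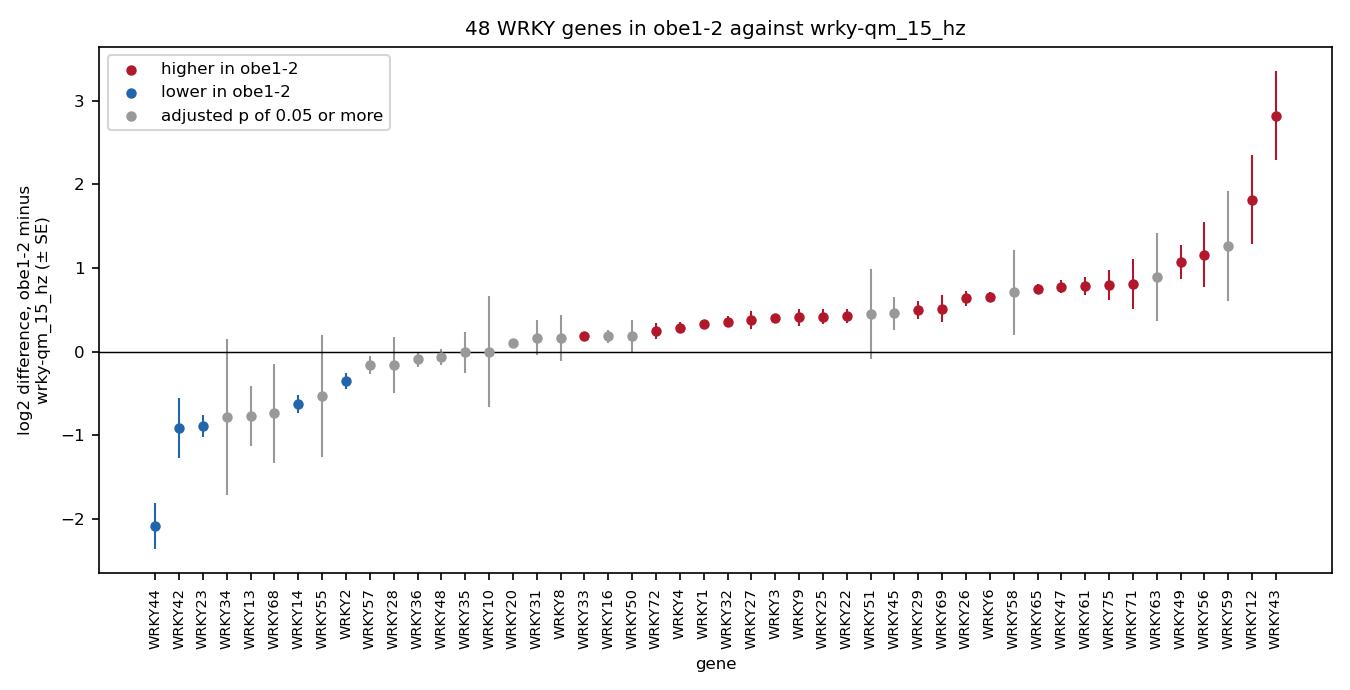
Log2 difference with its standard error (y axis) between obe1-2 and wrky-qm_15_hz for the 48 tested WRKY genes (x axis, in order of the difference), red where higher and blue where lower in obe1-2 at adjusted p under 0.05. The 23 red genes lie mostly between 0.18 and 1.16, and WRKY44 stands lowest at -2.09.

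The wild-type sets differed as well. In Col-0_2, 13 of the 48 members were higher than in Col-0_1 and 0 lower by limma's adjusted p, against 13.7% and 9.52% of all genes. At an unadjusted p under 0.05 the counts were 16 higher and 2 lower. The shares of all genes given here are for adjusted p and cannot be set beside those counts. WRKY26 differed by 1.43 ± 0.093 (adjusted p = 2.21e-10), WRKY33 by 1.19 ± 0.049 (adjusted p = 1.71e-13), WRKY45 by 1.08 ± 0.197 and WRKY75 by 1.004 ± 0.18. These 4 are the called members with a log2 difference of 1 or more, a limit chosen after the values were seen.

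Levels of different genes were compared per kb of the longest annotated transcript, as normalised reads per kb. In Col-0_2 the highest members were WRKY65, at 1074, WRKY3, at 905, and WRKY1, at 754. In Col-0_1 they were WRKY3, at 931, and WRKY65, at 888. The order was different in the mutants. In obe1-2 it began with WRKY65, at 4012, WRKY29, at 3856, and WRKY6, at 3103, and in wrky-qm_15_hz with WRKY29, at 2724, WRKY65, at 2385, and WRKY33, at 2100.5. In wrky-qm WRKY33 led, at 1895 normalised reads per kb, against 667 in Col-0_2 and 292 in Col-0_1. WRKY29, among the highest in obe1-2, stood at 128 in Col-0_2 and 125 in Col-0_1.

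**Figure D5:**
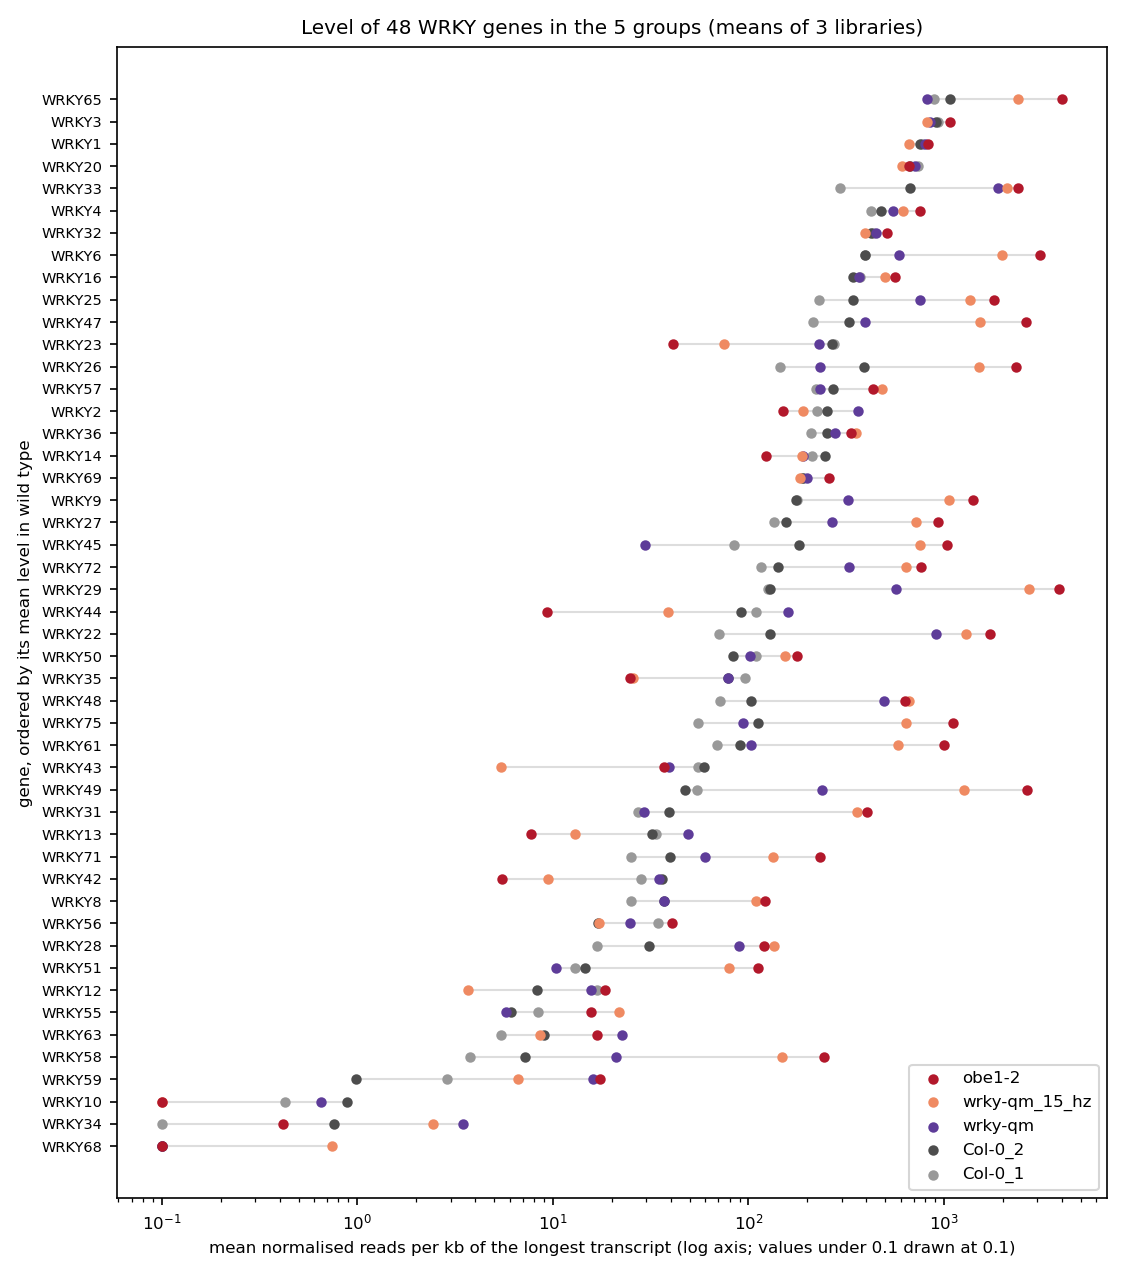
Mean normalised reads per kb of the longest transcript (x axis, log scale, values under 0.1 drawn at 0.1) of the 48 tested WRKY genes (y axis, ordered by their wild-type mean) in the 5 groups (colours). The obe1-2 points lie to the right of the wild-type points for most genes, and WRKY65 reaches the highest mean, 4012 in obe1-2.

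Genes known to act with WRKY proteins were also followed. A list of 19 partners, MAP kinase genes and genes of VQ proteins, had 17 tested members, of which 14 were higher and 1 lower in obe1-2, 14 higher and 0 lower in wrky-qm_15_hz, and 8 higher and 0 lower in wrky-qm. Among all genes, 29.2% were higher and 32.5% lower in obe1-2, 26.5% and 27.4% in wrky-qm_15_hz, and 15.5% and 11.4% in wrky-qm. The list was chosen with earlier results of these data known, so its counts are descriptions only. At an unadjusted p under 0.05, limma gave 0 lower in wrky-qm_15_hz and in wrky-qm as well, and the shares of all genes, taken at adjusted p, are no measure for that. The list's median log2 fold change was 1.025, 0.93 and 0.52 in obe1-2, wrky-qm_15_hz and wrky-qm, against -0.079, -0.038 and 0 over all genes. Its counts in wrky-qm depended on the wild-type set, with 13 called against Col-0_1 alone. The shares of all genes above are for the rule with both sets and cannot be set beside that count. MPK3, a kinase of the flagellin cascade, had 6892 to 7300.4 normalised reads in obe1-2, 7935 to 8174 in wrky-qm_15_hz and 8070.3 to 8110.5 in wrky-qm, against 4601 to 4775 in Col-0_2 and 2537 to 2862 in Col-0_1. It rose by 1.01 ± 0.037, 1.18 ± 0.037 and 1.19 ± 0.037 on the log2 scale. MPK4, a kinase known to hold back immune responses, rose by 1.04 ± 0.0397 in obe1-2 and 0.78 ± 0.0397 in wrky-qm_15_hz, and its value in wrky-qm was 0.024 ± 0.0397 (adjusted p = 1). VQ4, whose protein binds WRKY proteins, rose by 1.12 ± 0.048, 1.12 ± 0.048 and 0.31 ± 0.048 in the same order of mutants. CAMBP25, a calmodulin-binding VQ protein, rose by 1.499, 1.32 and 2.53. MEKK1 rose by 1.51 and MKK4 by 0.65 in wrky-qm, both of them kinases of these cascades.

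A list of 22 genes known to act downstream of members had 21 tested and was mixed in direction. This list too was chosen with earlier results of these data known, and its counts are descriptions only. In obe1-2 8 were higher and 5 lower, against 29.2% and 32.5% of all genes, with a median log2 fold change of 0 against -0.079 over all genes. In wrky-qm_15_hz 8 were higher and 5 lower, against 26.5% and 27.4% of all genes, with a median of 0.57 against -0.038. In wrky-qm 11 were higher and 2 lower, against 15.5% and 11.4% of all genes, with a median of 0.86 against 0. FRK1, a receptor kinase gene used as a readout of flagellin signalling through WRKY22 and WRKY29, had 10083 to 11121 normalised reads in obe1-2, 4769 to 5321 in wrky-qm_15_hz and 101 to 116 in wrky-qm, against 26.6 to 69.9 in Col-0_2 and 18 to 29.8 in Col-0_1. It rose by 8.29 ± 0.19, 7.24 ± 0.19 and 1.699 ± 0.19 in obe1-2, wrky-qm_15_hz and wrky-qm. PHT1;1, which WRKY45 is known to activate, rose by 2.38 ± 0.034, 2.57 ± 0.034 and 0.59 ± 0.034 in the same order, and so rose in wrky-qm, where WRKY45 fell. Its near-identical neighbours among the phosphate transporter genes may share reads with it.

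NCED3, an enzyme gene of abscisic acid synthesis, and RD29A, a gene switched on by drought and abscisic acid, both known downstream of WRKY57, fell where WRKY57 rose. NCED3 had 99.5 to 104 normalised reads in obe1-2, 287 to 302 in wrky-qm_15_hz and 13541 to 14010.2 in wrky-qm, against 863 to 926 in Col-0_2 and 977 to 1158 in Col-0_1. It fell by 3.26 in obe1-2 and fell by 1.74 in wrky-qm_15_hz, and rose by 3.81 in wrky-qm. RD29A fell by 3.31 in obe1-2 and fell by 2.83 in wrky-qm_15_hz and rose by 1.45 in wrky-qm. ABF2, a transcription factor gene of abscisic acid responses, rose by 2.01 in wrky-qm. It was called lower in obe1-2, at -0.22 ± 0.058, and in wrky-qm_15_hz, at -0.38 ± 0.058. Outside the rule for named genes, and after their values were seen, the 4 genes of the list linked to WRKY33 are given too. PAD3 and CYP71A13 encode camalexin enzymes, and ACS2 and ACS6 enzymes of ethylene synthesis. PAD3 rose by 0.76 ± 0.084 in obe1-2 and 0.82 ± 0.084 in wrky-qm_15_hz and fell by 1.26 in wrky-qm (adjusted p = 1.42e-09). ACS2 rose by 2.46 in obe1-2, 2.26 in wrky-qm_15_hz and 1.13 in wrky-qm (adjusted p = 0.00278). ACS6 rose by 1.32 in wrky-qm (adjusted p = 4.75e-08), with no call in obe1-2 or wrky-qm_15_hz. Its means there, 1188 and 1359 normalised reads, lay between the 1486 of Col-0_2 and the 631 of Col-0_1. CYP71A13 rose by 5.63 in obe1-2 and 4.495 in wrky-qm_15_hz, and its value in wrky-qm was 0.73. It was not called in wrky-qm, where its mean of 15.6 lay between the 3.84 of Col-0_2 and the 29.8 of Col-0_1.

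W-boxes were counted in the 250 bases before the annotated start, as TTGACC or TTGACT on either strand. Of the 51 members, 16 hold at least 1, which is 31.4%, against 28.4% of 27443 protein-coding genes. Of the 14 members higher in all 3 mutants, 6 hold 1 or more, which is 42.9%. None of the 7 members lower in obe1-2 and none of the 9 lower in wrky-qm_15_hz hold these letters in this window. The 1 member lower in wrky-qm, WRKY45, holds 2 W-boxes there. With sets this small the shares are descriptions only, and a missing match says only that these letters are not in this window.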

How the data were processed

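The authors' table holds 1 value per gene and library. Per the submitters' processing notes, bcl2fastq, HISAT2 and edgeR were used with the TAIR10 genome, and versions and counting options are not given in the sources used here. The deposited signal values are never negative, are not whole, and sum to 44049333 to 49934976 per library, which is the form of edgeR's pseudo-counts although no source states it, and whole reads could not be recovered from them. A count test planned for raw counts was therefore not run, and the sequencing depth of each library is unknown. Many zeros of Col-0_1 and wrky-qm are stored as tiny positive values, and values under 1e-06 were taken as 0.

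From these values log2(value + 1) was computed and tested with limma 3.58.1 (limma-trend, R 4.3.3) on all 15 libraries with 5 groups. Genes had to average 1 or more in some group, which 25085 did, and 6167 of 32548 were at 0 in every library. P-values were adjusted by Benjamini-Hochberg over all genes tested, with a threshold of 0.05. A gene changed in a mutant where it differed from Col-0_2 and Col-0_1 in the same direction, the larger p being kept. Where the directions differed, p was set to the highest possible value without a test. Adding 1 understates the change of low genes. The script was tested on simulated data. Replicates of a group correlated at r of 0.985 to 0.988 across genes. No label names a batch.

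Values in every library are given for the members changed in all 3 mutants, for each mutant's 6 top rises and 4 top falls among changed members whose libraries lie beyond all 6 wild-type libraries, and for the 4 largest differences each way between mutants. For the partner and downstream lists, up to 4 changed genes with the smallest p per mutant are named. The members and lists were chosen with earlier results of these data known. Alternatives were another pseudocount (0.5 or 5), another filter (none or a mean of 10), TMM (own code) or quantile scaling, 1 wild-type set or their mean, a block for the replicate number, a fit on the compared libraries alone, a difference of mutant effects, and leaving out each library. Sequences were read from TAIR10.1 with RefSeq's annotation.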

Additional observations from a re-analysis of the deposited data

How the results depend on the processing

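The number of members called stayed within 1.5 times the reported one under all alternatives run. Leaving out 1 library gave 37 to 38 members changed in obe1-2, 33 to 38 in wrky-qm_15_hz and 14 to 17 in wrky-qm. It gave 35 to 39 differing between wrky-qm_15_hz and wrky-qm, 33 to 37 between obe1-2 and wrky-qm, 24 to 29 between obe1-2 and wrky-qm_15_hz and 10 to 15 between Col-0_2 and Col-0_1. The partners called in wrky-qm numbered 13 against Col-0_1 alone and 8 against both sets. The directions that turned did so under the difference of mutant effects, whose pairing of wild-type sets is assumed. For wrky-qm_15_hz and wrky-qm these were WRKY22 (-0.36 ± 0.12), WRKY33 (-1.04 ± 0.0699) and WRKY48 (-0.12 ± 0.14), and for obe1-2 and wrky-qm WRKY33 (-0.86 ± 0.0699) and WRKY48 (-0.19 ± 0.14). By construction this alternative subtracts the difference between Col-0_2 and Col-0_1, which was 0.86 for WRKY22, 1.19 for WRKY33 and 0.54 for WRKY48. Calls were lost under at least 1 alternative for 3 members in obe1-2, 3 in wrky-qm_15_hz, 4 in wrky-qm, 9 between wrky-qm_15_hz and wrky-qm, 4 between obe1-2 and wrky-qm, 6 between obe1-2 and wrky-qm_15_hz and 4 between the wild-type sets, beside those that turned direction. Quantile scaling moved the median of all genes by 0.14 for obe1-2 minus wrky-qm and by under 0.1 elsewhere. With the replicate number as a block, 38 members changed in obe1-2, 36 in wrky-qm_15_hz and 17 in wrky-qm, while 38 differed between wrky-qm_15_hz and wrky-qm, 35 between obe1-2 and wrky-qm, 27 between obe1-2 and wrky-qm_15_hz and 13 between the wild-type sets. The block left the counts of partners and downstream genes as reported, with 15, 14 and 8 partners and 13, 13 and 13 downstream genes called in obe1-2, wrky-qm_15_hz and wrky-qm. Deviations of same-numbered libraries correlated at -0.098 to 0.05 over 30 pairs, so the numbers do not pair the libraries. With 3 libraries a group and unknown depth, differences of members with few normalised reads, such as WRKY10, WRKY34 and WRKY68, were not detectable here.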
